A study of Mus musculus with 1507 samples.

Results

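The primitive endoderm (PrE) cells described here were 195 single cells sorted onto 4 plates, named E1, E2, B1 and B2, and chosen by their label as PrE cells in the table of the plate experiment. Plate E1 held 56 of them, plate E2 54, plate B1 38 and plate B2 47. They were 195 of 384 wells of the experiment and of 1507 samples of the series, and the 189 embryonic stem (ES) cells of the same plates, with 40, 42, 58 and 49 wells, served as the reference. Both cell types came from the mouse ES cell line 5G6GR, in which a vector coding for Gata6 fused to the ligand-binding part of the glucocorticoid receptor and for puromycin resistance is inserted at random in the EB5 line. The ES cells were grown without feeders in serum with LIF, puromycin and blasticidin. The PrE cells had spent 72 h in differentiation medium in which dexamethasone took the place of blasticidin, so medium, drug and cell type differ together and cannot be told apart. In EB5 cells the blasticidin resistance gene sits in an allele of Pou5f1. Cells were stained with Hoechst and propidium iodide before the sort, and each well was made into a RamDA-seq library, a full-length method that primes reverse transcription with not-so-random primers and oligo-dT and so also copies RNA without a poly(A) tail. The labels name 4 plates but do not say which of them shared an experimenter or a day. Nothing states that plates came from separate cultures, so p-values over plates measure the spread between plates, which may be technical.

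The PrE is the epithelium that lines the blastocoel side of the inner cell mass, and it gives rise to visceral endoderm, which surrounds the embryo, and parietal endoderm, which lays down Reichert's membrane. Gata6, Gata4, Sox17 and Sox7 are the transcription factors of this lineage, and forced Gata6 activity turns ES cells into PrE-like cells in culture. The lineage is known for secreting a thick basement membrane of laminin, collagen IV, nidogen, perlecan and Sparc, and for endocytosis through the receptors megalin and cubilin with the adaptor Dab2.

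Col4a1 is the marker with the most tightly coupled partner among the PrE cells, its divergent neighbour Col4a2, and the 300 bases around its start are shown for that reason. The stretch is chr8:11312777-11313076 of GRCm38.p6 on the minus strand, from RefSeq, and covers 250 bases before the start of Col4a1 and 50 after it. Capitals mark the 78 bases, at 11312777 to 11312854, that also lie in the same window of Col4a2, which spans 11312555 to 11312854 on the plus strand.
Col4a1: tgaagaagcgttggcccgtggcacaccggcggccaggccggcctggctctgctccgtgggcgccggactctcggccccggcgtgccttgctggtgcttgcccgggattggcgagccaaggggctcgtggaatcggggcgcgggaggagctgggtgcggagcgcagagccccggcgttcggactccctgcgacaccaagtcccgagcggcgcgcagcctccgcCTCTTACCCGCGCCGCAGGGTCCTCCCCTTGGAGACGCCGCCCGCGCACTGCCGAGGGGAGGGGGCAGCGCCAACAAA

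Some wells had almost no transcripts detected, and few reads cannot be told from little RNA. The values are TPM, a relative abundance corrected for transcript length, summed over the transcripts of a gene, and TPM carry no read depth, so wells were compared by the number of transcripts with a TPM of at least 0.1. A well was set apart when this number lay below the first quartile of its plate and cell type by more than 1.5 interquartile ranges. This set apart 11 PrE wells, 2 on plate E1, 2 on E2, 1 on B1 and 6 on B2. Near-empty wells, with 22 to 206 transcripts, made up 8 of the 11, 5 of them on B2, and the other three had 20436, 22086 and 22966. The 184 PrE wells that remained had 26147 to 31204 transcripts with a median of 28580.5, so the gap between the highest well set apart and the lowest well kept was from 22966 to 26147. Among the ES cells 16 wells were set apart, 14 of them with 26 to 79 transcripts, and 173 remained with a median of 28822. The plot of transcripts per well shows these wells far below the rest of their plates.

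In near-empty wells a gene with a few reads takes a large share of all TPM. The well of B2 with 29 transcripts listed Mir6236 at 535874 TPM, and one with 44 listed Actb at 361722 TPM. Such wells move a plate mean, so values below leave out the few-transcript wells unless all wells are named, and values from all wells stand beside the main counts and beside a number of other values. The labels were compared with a score, the mean log2(TPM + 1) of the 6 PrE markers against that of 6 ES markers (Pou5f1, Sox2, Nanog, Zfp42, Esrrb and Tdgf1). Of 195 PrE wells 1 scored higher for ES than for PrE markers, and it was the near-empty well of E2 with 206 transcripts. All 184 remaining PrE wells scored higher for PrE markers, with scores of 6.67 to 8.83 against 0.277 to 3.76 for ES markers. All 173 remaining ES wells scored higher for ES markers.

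The 6 marker genes were high in PrE cells of every plate and close to absent in ES cells. Gata4, a zinc-finger transcription factor of endoderm (chr14:63198922-63271692, minus strand, GRCm38), had a mean of 354 TPM in PrE cells on E1, 335 on E2, 363 on B1 and 342 on B2. The ES means of Gata4 on the same plates lay between 1.25 and 1.61 TPM. The PrE plates differed little from each other and lay far above every ES plate, and the difference on the scale of log2(plate mean TPM + 1) was 7.19 ± 0.07 (SE, 4 plates a group, limma adjusted p = 1.18e-10). Sox17, an HMG-box factor of endoderm (chr1:4490931-4497354, minus strand), had 101, 112, 116 and 126 TPM on E1, E2, B1 and B2, against at most 0.358 TPM on any ES plate. Its log2 difference was 6.57 ± 0.10 (adjusted p = 3.09e-10).

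Dab2, the clathrin adaptor that brings receptors into coated pits (chr15:6299788-6440712, plus strand), had 346, 344, 377 and 377 TPM in PrE cells. In ES cells Dab2 had 0.619 to 1.63 TPM, the highest of them on B2, and the log2 difference was 7.62 ± 0.16 (adjusted p = 1.38e-09). Pdgfra, the receptor for platelet-derived growth factor (chr5:75152292-75198215, plus strand), had 144, 132, 115 and 132 TPM, and its ES means stayed at or below 0.450 TPM. No plate of one cell type overlapped the other for either gene, and the log2 difference of Pdgfra was 6.63 ± 0.12 (adjusted p = 6.14e-10). Srgn encodes serglycin, the core protein of a secretory granule proteoglycan (chr10:62493833-62527451, minus strand). It had 601, 578, 562 and 620 TPM in PrE cells against 0.764 to 1.22 TPM in ES cells, with a log2 difference of 8.22 ± 0.09 (adjusted p = 1.4e-10).

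Col4a1, the alpha-1 chain of collagen IV (chr8:11198423-11312826, minus strand), was the most abundant of the 6, with 1213, 1200, 1195 and 1356 TPM in PrE cells on E1, E2, B1 and B2. Its ES means were 11.2 to 14.3 TPM, the highest ES background of the 6 markers, and the log2 difference was 6.50 ± 0.09 (adjusted p = 2.38e-10). With all wells the ES mean of Col4a1 on B2 was 642.7 TPM while the other ES plates lay at 12.4 to 37.8, and the difference shrank to 4.68 (adjusted p = 0.00545). The other 5 markers moved little when all wells were used, with log2 differences of 6.51 to 8.21. Every marker was detected at 1 TPM or more in every one of the 184 PrE cells.

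**Figure D1:**
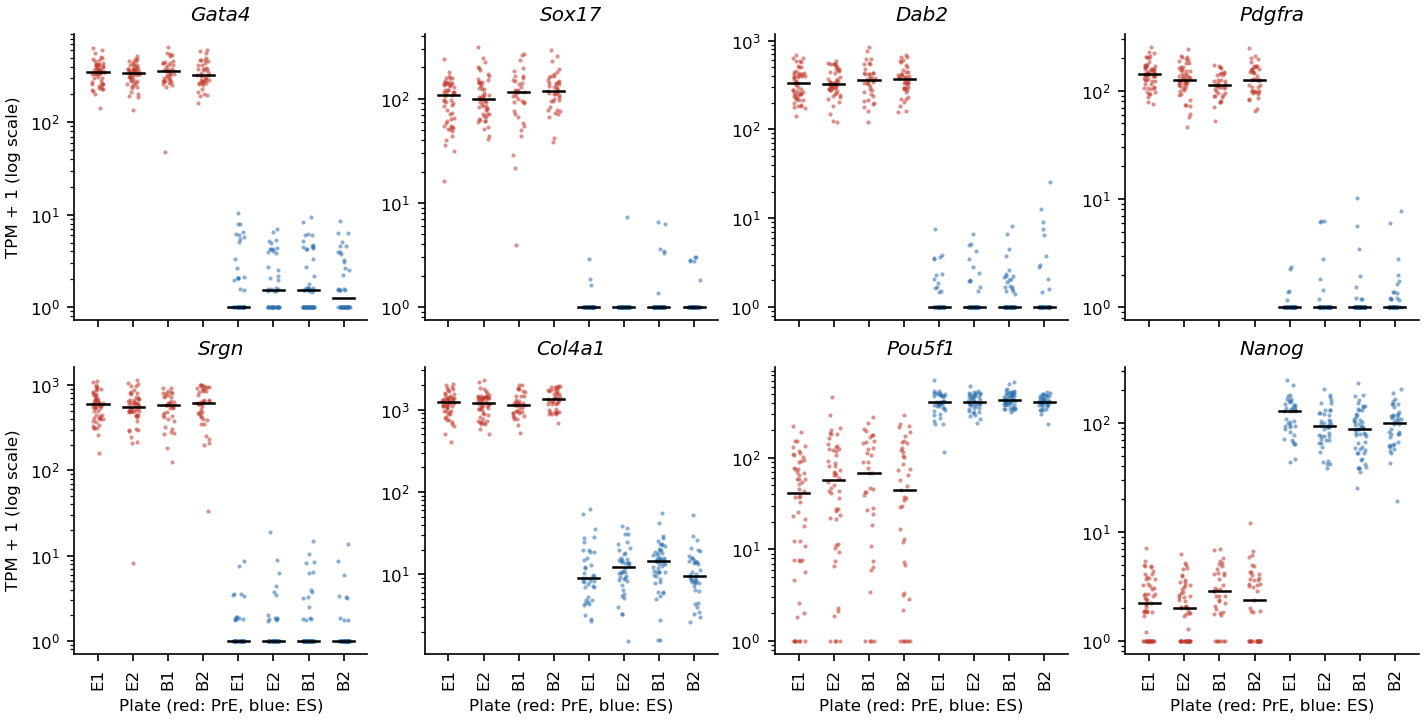
TPM of the 6 PrE markers and of Pou5f1 and Nanog in each PrE and ES cell, on a log axis of TPM + 1, by plate; red points are PrE cells, blue points are ES cells and bars are plate medians, without few-transcript wells. The markers of PrE sit apart from the ES cells on all 4 plates, while Pou5f1 in PrE cells runs from 0 to 458 TPM.

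The comparison of PrE with ES cells asked which genes separate the differentiated from the undifferentiated cells beyond the spread between plates. The log2 of the plate mean TPM plus 1 was compared for genes with a mean of at least 1 TPM in 4 or more of the 8 plate columns. With all wells, 5770 of 16419 genes were higher in PrE cells (35.1%) and 4120 were lower (25.1%) at a limma adjusted p under 0.05. Without few-transcript wells 6017 of 16681 were higher (36.1%) and 4934 were lower (29.6%). Of the genes called, 9772 were called in both sets with the same direction and 0 in opposite directions. Differences of at least 2-fold were fewer, 2699 higher and 1908 lower without few-transcript wells. The median difference over all genes was 0.09 with all wells and 0.06 without few-transcript wells, and it went to -0.02 in both when plates were rescaled by median of ratios. The excess of higher genes was gone under that scaling, with 5283 higher and 5294 lower with all wells and 5539 and 5603 without few-transcript wells.

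The genes with the largest differences upward included 5 of the 6 markers with all wells and all 6 without few-transcript wells. Cryab, a small heat shock protein, followed Srgn and Dab2, with 339, 256, 272 and 271 TPM in PrE cells against 0.469 TPM as the ES mean and a log2 difference of 7.62 ± 0.16. Hs3st1, an enzyme that sulfates heparan chains, had 212 ± 23.2 TPM in PrE cells (SD, n = 4 plates) and 0.300 TPM in ES cells. Pth1r, the receptor for parathyroid hormone and its related peptide and a parietal endoderm gene, had 187 ± 6.83 TPM against 0.405 TPM. Secreted regulators of growth factors were in the same group. Fst, which binds activin, had 164 ± 14.3 TPM against 0.910 TPM, and Bmper, which binds bone morphogenetic proteins, had 111 ± 11.1 TPM against 0.0652 TPM. The water channel Aqp8 had 113 ± 18 TPM against 0.167 TPM. Aqp8 and Bmper entered the 15 largest differences only without few-transcript wells, since their all-wells ES means were 63.2 and 24.0 TPM. Both sets of 15 shared 9 genes upward and 13 downward.

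The largest differences downward included genes known for the ES state and for Nodal and FGF signals. Trh, the precursor of thyrotropin-releasing hormone, had 0.117 to 0.236 TPM on the PrE plates against 348 to 425 TPM on the ES plates, a log2 difference of -8.37 ± 0.08 (adjusted p = 1.18e-10). Tdgf1, the Nodal co-receptor Cripto, had 0.173 ± 0.0954 TPM against 177 ± 13, and reads of Tdgf1 and its pseudogene Tdgf1-ps1 may be divided between them. Lefty2, a Nodal antagonist, had 0.124 TPM against 110, and Nr0b1, an orphan nuclear receptor of ES cells, had 0.305 TPM against 112. Ifitm1 had 0.500 TPM in PrE cells against 281 in ES cells. Fgf4, the main FGF ligand of the epiblast, had 0.212 TPM against 54.4 TPM. The PrE and ES plates of these genes did not overlap.

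The gene lists are given by role. Their counts stand beside 36.1% higher and 29.6% lower over all genes without few-transcript wells, and 35.1% and 25.1% with all wells. Of the 9 endoderm transcription factors 8 passed the filter on low values, and all 8 were higher in PrE cells, with a median log2 difference of 4.93. With all wells 7 of 8 were higher. Foxa2 and Foxq1 had means of 28.7 and 33.7 TPM in PrE cells and below 0.1 TPM in ES cells. Sox7 had 96.8 ± 8.05 TPM against 0.945. Gata6 had 217, 212, 216 and 236 TPM in PrE cells on E1, E2, B1 and B2 and 68.6 to 81.3 TPM in ES cells, a log2 difference of 1.52 ± 0.08 (adjusted p = 3.47e-07). Reads of the Gata6 transgene and of the gene itself cannot be told apart in these values, and with all wells the difference of Gata6 was 0.76 and did not pass (adjusted p = 0.144). Gata5 did not pass the filter, with 0.122 TPM in PrE cells.

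Of 11 basement membrane proteins, 10 were higher and 1 was lower, with a median difference of 3.93, and with all wells 9 were higher and 1 lower. Sparc, a collagen-binding matrix protein, was the most abundant of them, with 4978, 4554, 4754 and 5113 TPM in PrE cells against 92.4 ± 6.65 TPM in ES cells. The 3 chains of laminin-111 followed, with 1859 TPM for Lama1, 1629 for Lamc1 and 1406 for Lamb1, against 66.3, 106 and 15.2 TPM in ES cells. Col4a2, the partner chain of Col4a1, had 621 ± 29.4 TPM against 5.10. The perlecan gene Hspg2 had 558 TPM against 61.2, and the nidogens Nid1 and Nid2 had 351 and 133 TPM against 34.6 and 76.0. Lama5, the alpha chain of other laminins, was the member that was lower, with 34.2 ± 2.64 TPM against 95 ± 12.4.

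Enzymes that modify and fold collagen were higher throughout the list. All 8 of the 8 tested were higher in PrE cells in both sets of wells, with a median difference of 4.53. Serpinh1, the collagen chaperone HSP47, had 1325 ± 60.5 TPM against 24.2. The prolyl 4-hydroxylase subunits P4ha1 and P4ha2 had 198 and 374 TPM against 3.56 and 4.69, and the lysyl hydroxylase Plod2 had 369 ± 67.4 TPM against 8.96. Of 18 secretory pathway genes, 17 were higher and 1, Ssr2, was lower, with a median of 1.66, and with all wells 16 were higher. The ER chaperone Hspa5 had 804 TPM against 271, and Kdelr3, a receptor that returns ER proteins from the Golgi, had 180 TPM against 22.5. Of 12 lysosomal genes 9 were higher and 2 lower in both sets. Lgmn, a lysosomal protease, had 225 ± 29.2 TPM against 17.3, while the lysosomal hydrolase Hexa was lower, at 14.2 TPM against 30.3.

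Of 6 endocytic receptors and adaptors 5 were higher and 1 was lower. Lrp2, the receptor megalin, had 404, 386, 358 and 462 TPM in PrE cells on E1, E2, B1 and B2 and at most 16.8 TPM on an ES plate. Cubn, the receptor cubilin, had 110 ± 16.9 TPM against 0.0816, and its anchor Amn had 6.82 TPM against 0.167. Lrp1, a receptor of the same family as megalin, was lower, with 7.12 TPM against 19.1. Among 9 signal receptors tested, 6 were higher and 2 lower. The FGF receptors differed in direction. Fgfr2, Fgfr3 and Fgfr4 had 17.9, 39.8 and 36 TPM in PrE cells against 1.30, 0.526 and 0.914 TPM, and Fgfr1 had 7.12 TPM against 29.3. Lifr, the LIF receptor, had 78.7 ± 5.00 TPM against 22.7.

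All 9 genes of FGF and ERK feedback were lower in PrE cells in both sets of wells, with a median difference of -2.26. Etv5, an ETS factor induced by FGF, had 4.16, 2.80, 2.52 and 3.23 TPM in PrE cells against 143 to 153 TPM on the ES plates. Dusp6, a phosphatase of ERK, had 0.964 TPM against 28.7, and Spry4, an inhibitor of the pathway, had 1.22 TPM against 25.9. The immediate early genes were divided. Egr1 and Fos were lower, with 0.693 and 4.90 TPM against 68.1 and 28.3, and Atf3 and Jun were higher, with 26.7 and 20.8 TPM against 3.38 and 8.97.

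Markers of parietal and visceral endoderm were unequal in number. Of 8 parietal endoderm genes 7 were higher and 1 was lower, with a median of 5.31. Thbd, the thrombin receptor thrombomodulin, had 64.8, 45.7, 48.0 and 48.9 TPM in PrE cells and at most 0.171 TPM on an ES plate, and Plat, tissue plasminogen activator, had 35.7 TPM against 0.0803. Vim, the intermediate filament vimentin, was lower in PrE cells, with 64.0 ± 8.82 TPM against 174 ± 11.2. Of 11 visceral endoderm genes 6 passed the filter on low values, 3 of them higher and 2 lower, and with all wells 5 passed, 2 of them higher and 2 lower. For so few genes these counts lie near the 36.1% higher and 29.6% lower over all genes. Ihh, a hedgehog ligand, had 10.6 TPM against 0.194, and Hnf4a had 6.24 TPM against 0.00537. Afp, Apoa1 and Apoa4 had means below 0.1 TPM in PrE cells, Ttr had 0.819 TPM, and Apoe was lower than in ES cells, at 120 ± 11.6 TPM against 478 ± 27.5. Among 4 anterior visceral endoderm genes tested, 2 were higher and 2 lower in both sets of wells, again too few to set apart from all genes. Their median difference was -1.17, and the lowest was -4.81. Dkk1, a Wnt antagonist of anterior visceral endoderm, had 19.1 TPM against 0.150, while Cer1 stayed at 0.0717 TPM.

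Of 19 pluripotency genes tested, 16 were lower in PrE cells and 3 did not pass, with a median difference of -3.36, and with all wells 15 were lower. Nanog had 1.68 ± 0.381 TPM against 103 ± 12.9 and Sox2 had 0.345 TPM against 72.6. Pou5f1 (chr17:35506018-35510772, plus strand) kept a higher level, with 53.4, 79.1, 83.3 and 73.3 TPM in PrE cells on E1, E2, B1 and B2 against 404 to 442 TPM on the ES plates, a log2 difference of -2.54 ± 0.13 (adjusted p = 2.81e-07). Klf4, Dppa5a and Fbxo15 did not pass, and Klf4 had 79.1 to 92.9 TPM on the PrE plates and 71.1 to 85.2 TPM on the ES plates, which overlap.

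**Figure D2:**
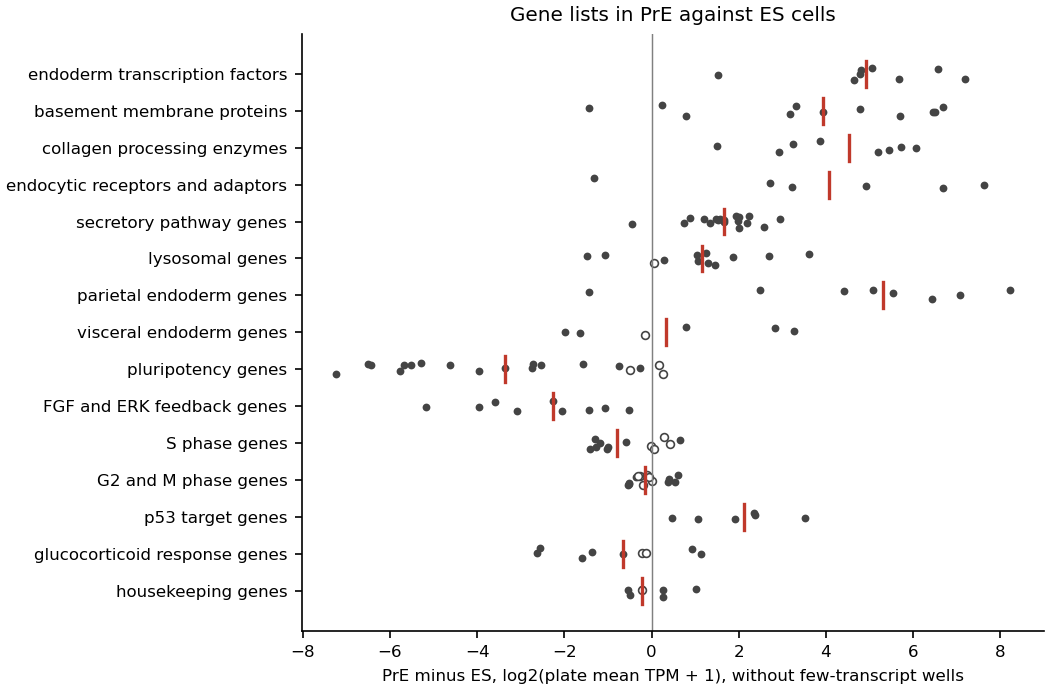
Log2 difference PrE minus ES of each tested member of the gene lists, on the scale of log2(plate mean TPM + 1), without few-transcript wells; filled points passed an adjusted p of 0.05 and open points did not, and the bar is the median of the list. All 8 collagen processing enzymes lie above 0 and all 9 genes of FGF and ERK feedback lie below it, where the median over all genes is 0.06.

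Cell cycle genes differed by less than the lists of secretion and matrix. Of 12 S phase genes 7 were lower and 1 higher, among them Mcm2 with 61.6 ± 1.81 TPM against 141 ± 5.68 and Pcna with 57.4 TPM against 117. Of 14 G2 and M phase genes 4 were higher and 4 lower without few-transcript wells, and 4 and 1 with all wells, with medians of -0.15 and -0.10, and these counts lie near the 36.1% higher and 29.6% lower over all genes. Cdkn1a, an inhibitor of cyclin-dependent kinases and a target of p53, had 91.2, 80.9, 89.5 and 83.2 TPM in PrE cells against 4.72 to 7.94 TPM on the ES plates. All 6 p53 targets were higher without few-transcript wells and 5 with all wells, among them Mdm2 with 131 TPM against 34.1 and Ccng1 with 150 TPM against 28.3. Of 9 glucocorticoid response genes 2 were higher and 5 lower. Per1 was higher, at 22.9 TPM against 9.83, and Fkbp5, Mt1 and Mt2 were lower, at 4.47, 163 and 32.5 TPM against 31, 497 and 202.

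Epithelial genes did not all move one way. Krt8 and Krt18, the keratins of simple epithelia, had 134 and 35.3 TPM in PrE cells against 8.65 and 1.90, and the tight junction gene Cldn6 had 51.1 TPM against 1.46. Cdh1, E-cadherin, was lower, with 8.16 ± 1.32 TPM against 32 ± 2.39. Igf2 and Peg3, imprinted genes in no list, were named after their values were seen. Igf2, an embryonic growth factor, had 99.0, 87.3, 112 and 101 TPM in PrE cells and at most 2.01 TPM on an ES plate, and Peg3 had 64.8 TPM against 11.5. Airn, the noncoding RNA antisense to Igf2r, had 25.5 TPM against 2.58, and without strand its reads cannot be told from those of Igf2r introns.

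Genes of other lineages had low TPM in PrE cells, but 2 of the 3 trophoblast genes tested, Gata3 and Eomes, were higher than in ES cells in both sets of wells. The summed level of 7 trophoblast genes was 9.28 to 16.7 TPM over the PrE plates and 2.82 to 4.46 TPM over the ES plates. Its most abundant member was Gata3, a factor of trophoblast with 8.61 ± 3.97 TPM in PrE cells, followed by Eomes with 1.95 and Elf5 with 1.68 TPM, while Hand1 and Tpbpa were at 0 in every PrE cell and Cdx2 had 0.421 TPM. The 5 mesoderm genes summed to 0.407 to 0.931 TPM over the PrE plates, and T was at 0 on each of them. The 8 two-cell genes found in the table summed to at most 1.17 TPM on a PrE plate, and no mesoderm or two-cell gene passed the filter on low values. The 5 neural genes summed to 9.23 to 10.1 TPM, nearly all of it Tubb3.

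Among the 184 PrE cells the 6 markers varied over different ranges. Gata4 ran from 46.8 to 655 TPM with quartiles of 276, 343 and 411, and Pdgfra from 45.4 to 255 TPM with quartiles of 105, 126 and 157. Sox17 ran from 2.97 to 314 TPM, and its squared coefficient of variation (CV, SD over mean) was 0.171 to 0.275 over the plates. Over the 184 cells its squared CV was 0.223, the highest of the 6. The squared CV of Gata4 was 0.0608 to 0.102 and that of Col4a1, which ran from 407 to 2262 TPM, was 0.0677 to 0.101. Dab2 ran from 119 to 851 TPM and Srgn from 7.09 to 1135 TPM. Differences between plates made up a small share of this spread, from 0.516% of the variance of log2(TPM + 1) for Gata4 to 6.51% for Pdgfra.

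The markers were weakly related to each other across cells. Spearman's rho was computed over the 54, 52, 37 and 41 PrE cells of E1, E2, B1 and B2. The mean over plates is given as a description, since the cells of a plate were prepared together and TPM sum to a constant. Gata4 and Sox17 had a mean rho of 0.37, with 0.27 to 0.47 over the plates. Gata4 and Dab2 had a mean of -0.25, from -0.53 to 0.08, and Dab2 and Col4a1 had -0.34, from -0.46 to -0.22. The remaining pairs of markers had means between -0.12 and 0.29.

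Each marker had its closest partners in other genes. Of 7290 other genes with a mean of at least 10 TPM, those most like Gata4 were Fst with a mean rho of 0.61, Lamc1 with 0.55 and Wnt11, a Wnt ligand, with 0.51. Those most like Dab2 were Cubn with 0.48, Cfc1, a Nodal co-receptor, with 0.46 and Itm2b with 0.43. Sox17 had Hs3st1, Tcf7l2 and Aff1 at 0.46, 0.45 and 0.43. Srgn had Car2, a carbonic anhydrase, at 0.44, Htra1 at 0.41 and Cotl1 at 0.40, and Pdgfra had no gene above 0.40.

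Col4a1 had the closest partner of all, Col4a2 (chr8:11312805-11449287, plus strand), which starts where Col4a1 starts and runs the other way. Their rho was 0.88 on E1, 0.87 on E2, 0.88 on B1 and 0.79 on B2, with a mean of 0.85 in PrE cells. The mean over the ES plates, where both genes were low, was 0.47. The next partners of Col4a1 were Nid1 at 0.63 and Sparc at 0.59. Lama1 and Lamc1, laminin chains whose genes lie on different chromosomes, had a mean rho of 0.75 in PrE cells and 0.24 in ES cells. The values do not use strand, and the gene models of Col4a1 and Col4a2 overlap only at 11312805 to 11312826, within the capitals of the printed sequence.

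Variation beyond that of genes of like level was measured as the residual of log10 squared CV from a trend on the mean, for 6653 genes with a mean of at least 10 TPM on each plate. Genes were ranked by their lowest residual over the 4 plates. Short genes led this ranking: of the 20 most variable, 11 had a longest transcript under 200 bases and 17 under 500, 8 were annotated as miRNA, and 15 of the 20 were shared with the ranking from all wells. Rian led the ranking, with a residual of 1.30, 1.32, 1.42 and 1.40 on E1, E2, B1 and B2. Among genes of at least 500 bases the leaders after it were the pseudogene Gm10925, Peg10, Krt19, mt-Co2, Meg3, mt-Co3, Myo7a, Ctgf and Gm10800, with Mirg, Mt2, Cubn and Vim among the next 10. This restriction on length was added after the ranking was seen.

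Krt19 and Myo7a were on in some PrE cells and near 0 in others, and so were Meg3 and Mirg. Meg3 was at 1 TPM or more in 42.9% of PrE cells and reached 260 TPM, and Mirg in 40.2% and reached 122 TPM. Peg10, Ctgf, Cubn and Vim were spread more broadly. Krt19, a keratin, was at 0 in 58 of 184 cells, had a median of 8.54 TPM and reached 319 TPM, and its plate medians were 10.2, 8.89, 6.17 and 5.88 TPM. Myo7a, an unconventional myosin, was at 0 in 67 cells and reached 185 TPM. Peg10, an imprinted gene derived from a retrotransposon, had quartiles of 1.85, 7.97 and 25 TPM and reached 564 TPM. Ctgf, a matrix protein induced by mechanical and TGF-beta signals, had quartiles of 19, 75.2 and 184 TPM and reached 931 TPM. Cubn ran from 0.126 to 585 TPM, with 22.1, 57.4 and 165 TPM as quartiles. Both Ctgf and Cubn were at 1 TPM or more in 97.3% of PrE cells. Vim had quartiles of 8.01, 27.6 and 84.3 TPM in PrE cells, and its upper quartile lay below the lower quartile in ES cells, 106 TPM.

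Meg3, Rian and Mirg are maternally expressed noncoding RNAs of the imprinted Dlk1-Dio3 region on chromosome 12, at 109541001-109571726, 109603940-109661716 and 109729764-109749460. They varied together among the PrE cells and also among the ES cells. In PrE cells the rho of Meg3 with Rian was 0.87, 0.85, 0.81 and 0.86 over the plates, and that of Meg3 with Mirg was 0.77 to 0.90. The gene most like Rian after Meg3 and Mirg was Gm24564 at 0.48, followed by Clic4 at 0.27. In ES cells the mean rho was 0.71 for Meg3 with Rian, 0.69 for Rian with Mirg and 0.59 for Meg3 with Mirg. All 3 RNAs were at 10 TPM or more in 52 of 184 PrE cells, and all 3 were under 1 TPM in 46 of 184. The share of PrE cells with all 3 at 10 TPM or more was 35.2% on E1, 25% on E2, 21.6% on B1 and 29.3% on B2. In ES cells the share was 75 to 89.7% over the plates, 143 of 173 cells, with no overlap with the PrE plates, and all 3 were under 1 TPM in 2 of 173.

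The level of Rian was also uneven among the PrE cells, and Rian was at 10 TPM or more in 106 of 184, against 68 for Meg3 and 56 for Mirg. Whether the cells form separate groups was not tested. Rian had quartiles of 0.950, 16.0 and 289 TPM in PrE cells and a highest value of 1741 TPM, and its mean over plates, 199 ± 29.3 TPM, lay far above its median. In ES cells the quartiles were 325, 454 and 645 TPM. The log2 difference in plate means was -1.37 ± 0.12 for Rian (adjusted p = 6.67e-06), and with all wells it was -0.65 and did not pass (adjusted p = 0.356). Meg3 had a difference of -1.50 ± 0.14 and Mirg of -1.52 ± 0.08, and both were also called with all wells. Dlk1, a paternally expressed gene of the region, had 2.69 ± 0.286 TPM in PrE cells against 0.684, and Rtl1, another, had 1.96 TPM against 4.40.

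**Figure D3:**
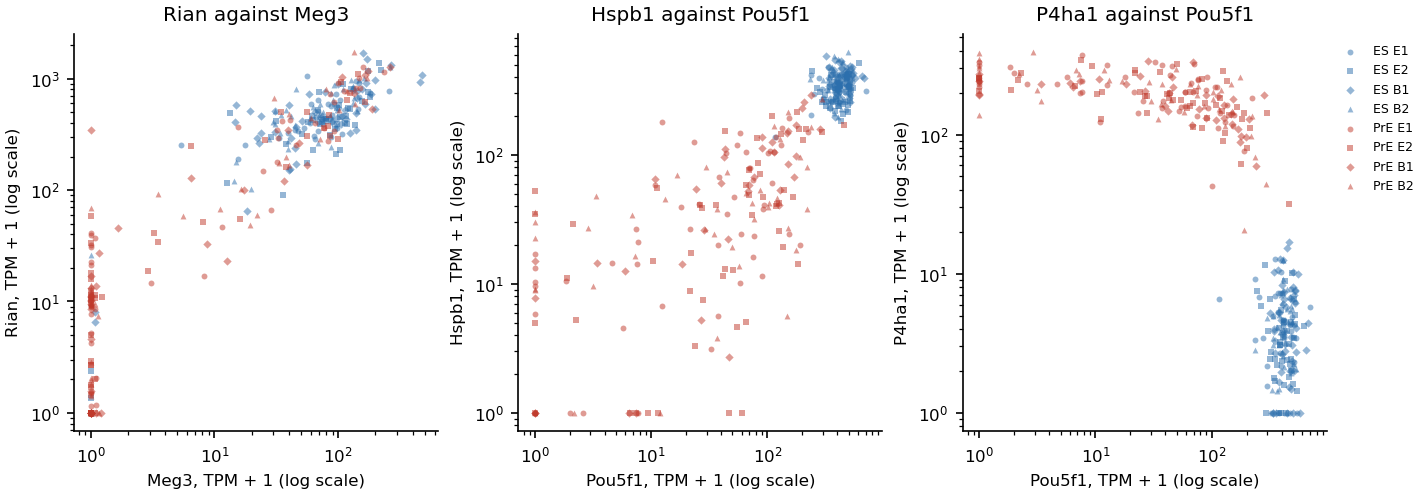
Pairs of genes in single PrE and ES cells, each point a cell on log axes of TPM + 1, without few-transcript wells: Rian against Meg3, Hspb1 against Pou5f1 and P4ha1 against Pou5f1. Meg3 and Rian form a diagonal from 0 upward in PrE cells, and P4ha1 declines while Hspb1 climbs with Pou5f1 among the PrE cells.

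Pou5f1, the POU factor of pluripotency, was uneven among the PrE cells. It was at 0 in 21 of 184 cells, had quartiles of 9.05, 47.0 and 113 TPM, reached 458 TPM and was at 10 TPM or more in 73.4% of cells. The ES cells ran from 114 to 701 TPM, so the upper PrE cells overlapped the lower ES cells. The plate medians in PrE cells were 39.9, 56.7, 67.3 and 44.0 TPM. Of its TPM in PrE cells 65.4% was assigned to Pou5f1-003, a model of 435 bases, and 33% to Pou5f1-001, of 1362 bases. Pou5f1 also has processed pseudogenes, so part of its level is uncertain.

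Cells with more Pou5f1 differed in a set of genes on all 4 plates. The genes most like Pou5f1 were Myo7a and Lrrk1 at a mean rho of 0.68, Hspb1, the small heat shock protein HSP27, at 0.67, and Elf3, an epithelial ETS factor, at 0.64. The genes least like it included Me2, mitochondrial malic enzyme, at -0.71, P4ha1 and the adenosine kinase Adk at -0.67, the lysyl oxidase Loxl2 at -0.66, Fst at -0.62 and Nid1 at -0.61. With all wells Me2 had a mean of -0.53, with -0.26 on B2, the plate with most near-empty PrE wells, and P4ha1 had -0.49. In ES cells the mean rho of Pou5f1 with Hspb1 was 0.17. Among the markers, Col4a1, Gata4 and Sox17 had means of -0.49, -0.43 and -0.30 with Pou5f1. Dab2 had 0.42, from 0.14 to 0.63 over the plates. Pdgfra had -0.07 and Srgn 0.14, and both changed sign between plates. Nanog, which had a median of 1.33 TPM and a highest value of 11 TPM in PrE cells, did not reach its ES range of 18.4 to 246 TPM in any PrE cell.

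A second set of relations ran through Thbd, which had quartiles of 8.48, 26.6 and 73.0 TPM among the PrE cells. The genes most like Thbd were the metalloproteinases Adam19 and Adamts9 at 0.59 and 0.57, followed by Fst at 0.53, and Tram2, Drp2, Aff1 and Nid1 each at 0.52. The 4 least like it were Apoe at -0.62, the cholesterol carrier Npc2 at -0.53, Dnmt3l, a cofactor of DNA methylation, at -0.51 and Hexa at -0.49. With all wells Apoe had -0.44, and -0.16 on B2. Apoe ran from 0 to 1131 TPM with quartiles of 27.6, 74.0 and 156 TPM. Thbd and Pou5f1 had a mean rho of -0.43, from -0.58 to -0.32 over the plates.

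Cell-to-cell variation was compared between PrE and ES cells by the same residual, fitted over plates for genes with a mean of at least 10 TPM in both cell types. With all wells 41 of 4913 genes were more variable in PrE cells (0.835%) and 13 were less variable (0.265%), and 704 had an unadjusted p under 0.05. Without few-transcript wells 244 of 5209 were more variable (4.68%) and 182 less (3.49%), and 53 of the 54 genes called with all wells were called again with the same direction. With the plate as a replicate block, 6 genes were called with all wells and 465 without few-transcript wells. Leaving out a plate with all wells left 0 genes without E1, 3 without E2, 0 without B1 and 22 without B2, and without few-transcript wells it left 229 to 350.

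Pou5f1 was first among the genes more variable in PrE cells with all wells. Without few-transcript wells it came after Tmem72, RP23-191I16.5 and Gm42860, with differences in residual of 1.24, 1.17 and 1.14. The residual of Pou5f1 was 0.76 in PrE cells and -0.31 in ES cells, a difference of 1.08 ± 0.08 (limma adjusted p = 1.93e-09), and 1.03 with all wells (adjusted p = 0.00407). Hspb1 had residuals of 0.77 and -0.20 (adjusted p = 1.47e-09), with quartiles of 11.4, 37.5 and 80.6 TPM in PrE cells against 291, 347 and 413 TPM in ES cells. Csrp2, a LIM-domain protein, was higher in PrE cells than in ES cells and also more variable, with residuals of 0.77 and -0.22 and quartiles of 64.0, 124 and 303 TPM against 44.8, 57.2 and 74.1. Mt2, the metallothionein, and the noncoding RNA Platr15 were among the 8 leading genes with all wells.

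Rhox5, an X-linked homeobox gene, led the genes less variable in PrE cells, with residuals of 0.75 and 1.77 (adjusted p = 1.47e-09). It was at 1 TPM or more in 92.9% of PrE cells and 16.2% of ES cells, and the few ES cells that had it reached 540 TPM. Plaur, the urokinase receptor, had residuals of 0.05 and 0.82, and Sdc4, a heparan sulfate proteoglycan of the cell surface, had 0.02 and 0.61. Phlda3, a p53 target, and Hmox1, heme oxygenase, were also less variable, with residuals of 0.18 and -0.02 against 0.76 and 0.53. Of the markers only Col4a1 had enough TPM in ES cells to be compared, with residuals of 0.20 and 0.29 and a difference of -0.09 ± 0.08 that did not pass (adjusted p = 0.551). With all wells that difference was -1.03 and did not pass either (adjusted p = 0.246).

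**Figure D4:**
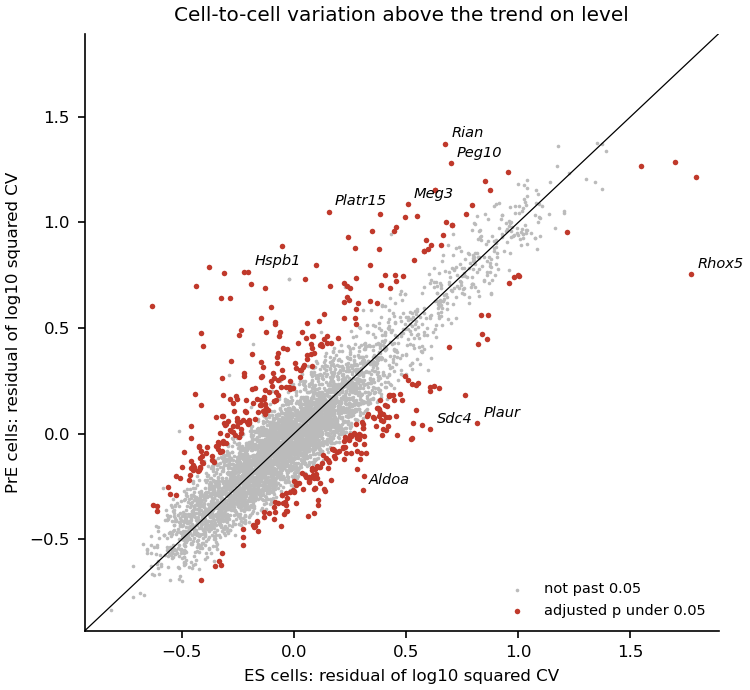
Residual of log10 squared CV in PrE cells (vertical) against ES cells (horizontal), each point 1 of 5209 genes, as the mean over 4 plates without few-transcript wells; coloured points passed an adjusted p of 0.05. Hspb1 lies at 0.77 in PrE and -0.20 in ES cells, and Rhox5 at 0.75 and 1.77.

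Plate means of most genes in PrE cells differed little beside the spread among cells. Over 7291 genes the median share of variance between plates was 2.57%, with a 95th percentile of 11%. The largest share, 43.9%, was that of mt-Rnr2, the mitochondrial 16S rRNA, with means of 24624, 21098, 10922 and 17807 TPM on E1, E2, B1 and B2. The pseudogene Gm29216 and the mitochondrial genes mt-Nd5 and mt-Cytb had the same order of plates. Stt3a, a subunit of the oligosaccharyltransferase, was the only protein-coding gene of the nuclear genome among the 10 with the largest shares, with 165, 140, 83.5 and 114 TPM and a share of 38.8%. With all wells the largest share was 19.5%, for Rpl23a-ps3, and mt-Rnr2 was not among the 10. Labels do not say which plates shared an experimenter or a day, so neither was compared.

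The number of transcripts detected was close in both cell types. The median PrE well had 28616 transcripts on E1, 28508 on E2, 28547.5 on B1 and 28535 on B2, and the median ES well had 29066, 28670.5, 28713.5 and 28770. Every PrE plate lay below every ES plate, and the difference of -253.375 transcripts had p = 0.0286 in a two-sided exact permutation test, the smallest p that 4 plates against 4 can give. The difference depended on the wells and the threshold. Without few-transcript wells it was -262.375 (exact p = 0.0571), with sign flips within plates, the replicate block, the exact p was 0.125, and at a threshold of 1 TPM PrE wells had 132.25 more (exact p = 0.429). Depth is not known for these wells, so a difference in reads cannot be told from one in RNA.

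Among RNA classes, 1 held the protein-coding genes other than ribosomal protein, histone and mitochondrial genes. Its share of TPM was 39.4%, 36%, 37.6% and 38.7% on the PrE plates and 31 to 32.8% on the ES plates. Ribosomal protein genes had 4.6 ± 0.323% of TPM in PrE cells against 6.42 ± 0.285%. The lincRNA genes, without those counted in the rRNA class, had 0.419 ± 0.0102% against 0.642 ± 0.0117%. The plates did not overlap for these 3 classes, and after adjustment over 6 classes the two-sided exact permutation test gave 0.0571 for each, above 0.05. Each had an unadjusted exact p of 0.0286, the smallest that 4 plates against 4 can give. When only 3 of 6 classes reach that floor, the adjusted p cannot fall below 0.05. With all wells the adjusted p was 0.0857 for the first 2 classes and 0.214 for lincRNA. The plates overlapped for rRNA, mitochondrial and histone genes. Within plates the rRNA share was lower in PrE than in ES cells on 4 of 4, with 4.81% against 5.65% on E1, 5.78% against 6.62% on E2, 5.23% against 5.86% on B1 and 5.15% against 5.87% on B2, a pattern for which sign flips cannot give an exact p below 0.125. The gene with the highest TPM was Mir6236, a miRNA model, with 22.2 to 25.1% of all TPM over the PrE plates and 24.3 to 26.2% over the ES plates. The rRNA class held only genes annotated as rRNA and a few listed beside them, so Mir6236 was not counted in it. Which RNA its reads came from was not tested, so the rRNA share given here may be incomplete.

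PrE cells from other experiments of the series are set beside these without a test, since each was normalized and prepared separately. Among 39 PrE cells of a microfluidic C1 run and 91 cells 72 h after dexamethasone from a time course, the median of Gata4 was 364 and 216 TPM, beside 343 TPM here. The median of Sox17 was 104 and 99.4 TPM, beside 109 here, and that of Srgn was 1235 and 526 TPM, beside 588. Pou5f1 had medians of 57.5 and 11.1 TPM, beside 47.0, and was at 10 TPM or more in 92.3% and 51.6% of cells, beside 73.4%. Meg3 was at 10 TPM or more in 30.8% and 24.2% of those cells, beside 37% here, and Krt19 had medians of 14 and 13.3 TPM, beside 8.54, so both genes were uneven among cells in all 3 sets.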

How the data were processed

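Single cells were sorted into wells by the authors, so doublets were not assessed, and each well became a RamDA-seq library amplified with 14 PCR cycles. The authors trimmed reads with fastq-mcf, quantified them without strand with Sailfish on GENCODE vM9, left out wells without reaction mix, and deposited the values in TPM per transcript. TPM of transcripts were summed per gene here. Gene coordinates follow the deposited gene models (mm10, GRCm38). TPM carry no read depth, so the number of transcripts detected stood in for it.

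The plate was the unit. The log2 of the plate mean TPM plus a pseudocount of 1 was compared over 4 PrE and 4 ES plate columns with limma 3.58.1 in R 4.3.3, with Benjamini-Hochberg adjustment and a threshold of 0.05, for genes with a mean of at least 1 TPM in 4 of 8 columns. Variation residuals came from a loess trend (span 0.5) of log10 squared CV on log10 mean TPM per plate and cell type, and were compared with limma too. Single values were tested by exact permutation, two-sided. Tables were handled in pandas 2.3.3 and numpy 2.4.6 under Python 3.11.15, exact tests and correlations used scipy 1.17.1, and plots matplotlib 3.10.9. On simulated data with 200 changed genes of 16419, 74.6% of changes of 1 on the log2 scale and 19.4% of changes of 0.5 were recovered with all wells, and 8.21% of calls were false, above the threshold of 0.05. For 16681 genes without few-transcript wells these were 86.6% and 40.3%, with 2.65% false. In the data 9890 and 10951 genes were called, far more than 200, and each simulation was run once. The simulated rates need not hold for the data.

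Both cell types shared each plate by the labels. Deviations of the PrE and ES columns from their group means correlated by 0.0404 to 0.0986 within a plate with all wells and by 0.0770 to 0.156 without few-transcript wells. Plate was therefore fitted as a replicate block in an alternative. Other alternatives were other pseudocounts, averages, filters and scalings, a variance trend, another measure of variation, and leaving out few-transcript wells, wells against their label or each plate.

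Genes named were the markers, list members, the 15 largest differences in each direction whose plates did not overlap, the 20 most variable genes, 8 in each direction for the difference in variation, 10 for plates, and the 3 genes most like each marker. Genes most like Pou5f1, Rian and Thbd, the limit of 500 bases, Igf2, Peg3, Dlk1 and Rtl1 were added after values were seen. The members, the lists and the rule on few-transcript wells were chosen with earlier results of these data known. The comparison planned as the main one used all wells.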

Additional observations from a re-analysis of the deposited data

Results flagged for a closer look

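Of 82 groups of 4 plates examined with all wells, 7 held a plate far from the other three by Dixon's test and chance gives about 5% of groups. Of the 7, 3 still held one without few-transcript wells.

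In PrE cells, Esrrb, an orphan nuclear receptor of ES cells, had a mean of 24.2 TPM on E2 against 0.691 to 2.18 TPM on the other plates, and 0.853 TPM on E2 without the few-transcript wells, when another plate stood apart at 2.23 TPM. Zfp42, the pluripotency marker Rex1, had 7.69 TPM on B2 against 9.85 to 10.2 TPM, and 8.75 TPM without few-transcript wells, no longer apart. Tdgf1-ps1 had 0.0722 TPM on E2 and 0 on the other PrE plates, and 0.0750 TPM without few-transcript wells.

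In ES cells, Col4a1 had 642.7 TPM on B2 against 12.4 to 37.8 TPM, and 11.2 TPM without the few-transcript wells of that plate. Dab2 had 1.33 TPM on B2 against 0.566 to 0.645 TPM, and 1.63 TPM without few-transcript wells, still apart. Fst had 1.21 TPM on B1 against 0.695 to 0.742 TPM, and Sox2 had 75.4 TPM on E1 against 63.3 to 65.3 TPM. Neither Fst nor Sox2 stood apart without few-transcript wells.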

How the results depend on the processing

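The count of genes lower in PrE cells, 4120 of 16419 with all wells, was 2549 of 10227 with a filter at 5 TPM, which tests fewer genes. The number of genes whose variation differed, 54 with all wells, was 161 with the SD of log2(TPM + 1) as the measure, 95 with a minimum of 5 TPM, 82 without wells against their label, 426 without few-transcript wells and 450 without them by the SD. Leaving out each plate gave 0 to 22 genes with all wells, 0 of them without E1 (469 at an unadjusted limma p under 0.05) or without B1 (481), and 229 (without E2), 259 (E1), 263 (B2) and 350 (B1) without few-transcript wells. With plate as a replicate block 6 genes were called with all wells and 465 without few-transcript wells, and the exact p for transcripts detected was 0.125 at -253.375. The block ended no other call of a result given here, with 6041 genes higher and 4393 lower in PrE cells.

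The difference in transcripts detected was -262.375 without few-transcript wells, 132.25 at 1 TPM, 482.56 by means over wells, and -283.667 to -187.833 with each plate left out, where the smallest exact p is 0.1. The mitochondrial share, 0.0197 percentage points higher in PrE cells with all wells, was -0.0227 without few-transcript wells and ran from -0.0277 to 0.075 with each plate left out, and the histone share ran from -0.0218 to 0.0322. The causes of these changes were not tested. None of the 91 genes given with values in both cell types changed sign under an alternative. Depth is not known, so the error of low TPM values cannot be given, and 4 plates limit every test.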
